A study of Mus musculus with 10 samples.

Results

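Interleukins and the chains of their receptors were read from the RNA of 10 mouse colon tumors. Members were taken by name: every entry of the deposited table whose mouse gene name is Il followed by a number and then only letters or digits, which gave 48 of the 16875 gene names. By their known roles, 15 encode ligands, 30 encode receptor chains, 2 encode a secreted antagonist or binding protein (Il1rn and Il18bp) and 1, Il4i1, encodes an enzyme named after IL-4. The letter r after the number marks 30 of the names, among them the antagonist Il1rn but not the receptor chain Il6st. The mouse annotation GENCODE M21 holds 83 names of this form, and the other 35, which include Il10, Il22, Il17a, Il12b and Il23r, were not analysed here.

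All tumors had been induced with azoxymethane (AOM) and 3 cycles of 2% dextran sulfate sodium (DSS) in mice of C57BL/6 background that were 6 to 10 weeks old at the start. All mice carried 2 floxed alleles of Wls (Wls flox/flox), the gene for the carrier that Wnt proteins need to leave a cell. Villin-WlscKO mice (5 tumors) also carried Villin-Cre ERT2, a tamoxifen-dependent Cre driven in intestinal epithelium, and received 5 injections of tamoxifen at 80 mg/kg that began 30 days before the tumors were collected. Control mice (5 tumors) lacked the Cre. The default control of the study is a tumor without tamoxifen. The comparison asks how the tumor transcriptome differs once the epithelium can no longer secrete Wnts. Tumors were macrodissected, so each sample mixes epithelium, stroma and immune cells, and fewer cells of a type cannot be told apart from less RNA per cell. The number of mice was not stated, so n counts tumors and every p-value rests on the spread between tumors. Tumors of the same mouse would not be independent, and the p-values would then be too small.

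Interleukins are secreted messengers between leukocytes, epithelium and stroma. The IL-1 family acts through paired receptors that recruit Myd88. Most other families act through Janus kinases and STAT transcription factors, and they share chains: Il2rg is common to the receptors of IL-2, IL-4, IL-7, IL-15 and IL-21, and Il6st (gp130) to those of IL-6 and IL-11. In the colon, IL-22 and IL-17 drive antimicrobial programs of the epithelium, IL-4 and IL-13 act on goblet cells, and IL-6 and IL-11 are known growth signals of colitis-associated tumors.

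Values are FPKM (fragments per kilobase of transcript, scaled to the mapped reads), which are per length and so can be compared between genes. Wls ranged from 61.3 to 79.9 FPKM in controls and from 2.03 to 11.7 in Villin-WlscKO tumors, of which tumors 2 and 3 had the highest values (11.6 and 11.7). The groups also differed in sex: Xist was between 439 and 701 FPKM in every Villin-WlscKO tumor and at most 0.420 in controls, whereas Eif2s3y, on the Y chromosome, was between 30.4 and 46.6 in controls and at most 0.138 in Villin-WlscKO tumors. Genotype, tamoxifen and sex therefore cannot be told apart in any comparison of the groups. The methods of the study state a preference for females, which the control tumors did not follow by these 2 genes. Villin-WlscKO tumors 2 and 3 stood apart further, with 469.5 and 669 FPKM of the squamous keratin Krt5 against at most 0.315 in every other tumor. The labelled tissue was borne out by the 7 genes of intestinal epithelium (Epcam, Cdh1, Krt8, Krt18, Krt20, Vil1 and Cdx2), which summed to between 3182 and 4963 FPKM. The median FPKM over all genes was between 11.3 and 12.2 per tumor, and the number of reads behind a value is unknown.

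Levels of the members spanned a wide range. Il1rn, the secreted antagonist of IL-1, had the highest mean over the 10 tumors, 120.3 FPKM, followed by Il1rl1 (ST2, the receptor of IL-33) at 70.4 and by Il18, an epithelial cytokine, at 64.7. A mean of 10 FPKM or more was reached by 17 members, and 8 members had a mean under 1 FPKM. The lowest were both receptor chains, Il18r1 at 0.481 and Il13ra2 at 0.428, and because their means were below 0.5 FPKM they were not tested. For 5 members the table repeats the values of another gene, so that the reads cannot be assigned to the member: Il10rb has the values of Ifnar2, Il11 those of Tmem238, Il20rb those of Nck1, Il2rg those of Gm614, and Il4i1 those of Nup62. None of these 5 is among the members that changed. Il11ra1, Il12rb2, Il16, Il17rb, Il18 and Il18bp overlap other protein-coding genes in GENCODE M21, and whether the quantification used strand is not given in the sources used here.

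**Figure D1:**
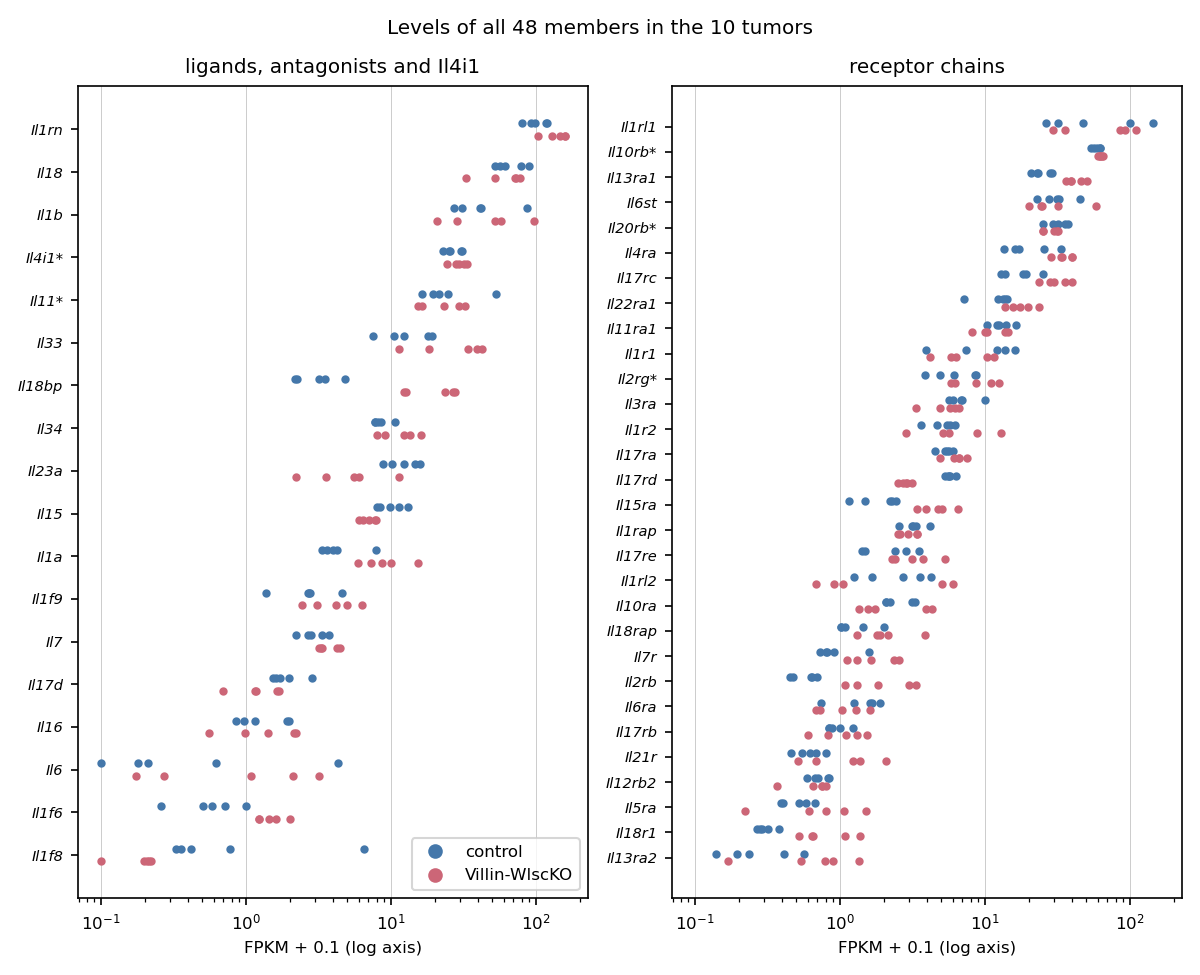
FPKM + 0.1 of the 48 members on a log axis, with each dot a tumor (blue, 5 control; red, 5 Villin-WlscKO), ligands, the antagonists and Il4i1 on the left and receptor chains on the right, in the order of their means. Il1rn is at the top of the left panel and Il13ra2 at the bottom of the right, and an asterisk marks the members whose values are also those of another gene name.

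Of the 46 members tested, 8 rose and 1 fell in Villin-WlscKO tumors at an adjusted p under 0.05 (limma on log2(FPKM + 1), adjusted by Benjamini-Hochberg over all 16757 genes tested). The members that rose made up 17.4% of those tested, against 6.12% of all genes, and the member that fell 2.17%, against 4.75% of all genes. Those that rose were the ligands Il1a and Il1f6, the binding protein Il18bp, and the receptor chains Il2rb, Il4ra, Il13ra1, Il15ra and Il17rc, and the receptor chain Il17rd fell. The other 37 did not pass. Among all 46, 29 values were higher and 17 lower in Villin-WlscKO tumors, and their median change was 0.17 on the log2 scale, against 0.0073 for all genes (interquartile range -0.15 to 0.18). The median of the members was 0.099 without Villin-WlscKO tumor 2 and 0.28 without control tumor 3. With Villin-WlscKO tumors 2 and 3 left out, 4 members rose (Il2rb, Il13ra1, Il15ra and Il18bp), and Il17rd still fell. The number that rose was 5 without control tumor 4, 5 without Villin-WlscKO tumor 3 and 9 with no filter on low values.

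In 5 of the tested members (10.9%, against 5.33% of all genes) every Villin-WlscKO tumor lay above every control tumor, and in 3 (6.52%, against 4.76% of all genes) every one lay below. The second share is near that of all genes. By role, 2 of the 15 ligands rose and none fell, with a median change of 0.098, and of the 28 receptor chains tested 5 rose and 1 fell, with a median of 0.17. The ligand median rested on single tumors: with 1 tumor left out it lay between -0.051 (without control tumor 5) and 0.33 (without control tumor 3), and it was -0.021 at a mean of 5 FPKM or more. That of the receptor chains lay between 0.098 (without Villin-WlscKO tumor 1) and 0.23 (without control tumor 3). Split by name, members with r after the number had 5 that rose and 1 that fell and a median of 0.23, and those without it 3 and 0 and a median of 0.11.

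**Figure D2:**
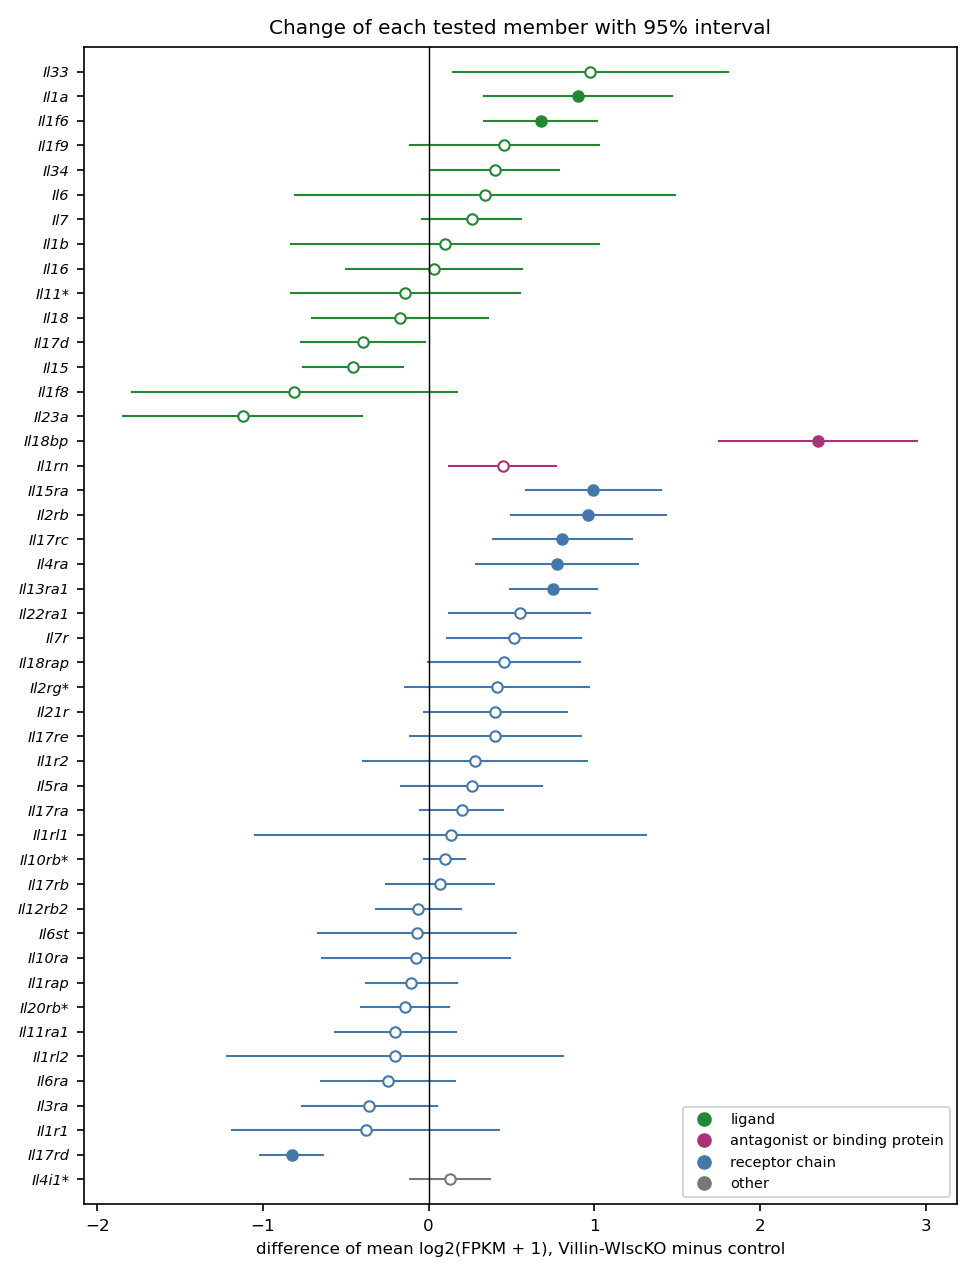
Change of the 46 members tested, on the horizontal axis as the log2(FPKM + 1) mean of Villin-WlscKO tumors less that of control tumors, with its 95% interval as the line. Colors give the role, filled dots the 9 members past the threshold and asterisks the members that share their values with another gene name. Il18bp lies farthest to the right, at 2.35, and of the filled dots only Il17rd lies to the left of 0.

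The largest rise was that of Il18bp, the secreted protein that binds and blocks IL-18. Il18bp measured 4.76, 3.11, 2.08, 3.39 and 2.13 FPKM in control tumors 1 to 5 and 12.5, 26.6, 27.5, 12.2 and 23.5 FPKM in Villin-WlscKO tumors 1 to 5. No tumor of either group reached into the range of the other, and Villin-WlscKO tumors 2, 3 and 5 were higher than tumors 1 and 4. Il18bp rose from 3.09 ± 1.10 to 20.5 ± 7.56 FPKM (SD, n = 5 each), a log2 change of 2.35 (SE 0.27, adjusted p = 0.000481). The gene, at chr7:102014885-102018690 on GRCm38, overlaps Numa1 on the other strand. The RefSeq start used here lies inside that span, and the bases before the gene's annotated start were not searched. The stretch before this RefSeq start is shown because it belongs to the member that rose most. These are the 250 bases before the start, chr7:102018233-102018482, minus strand, from RefSeq (GRCm38.p6), all in lower case because neither motif described for Il15ra has a match in it:
Il18bp: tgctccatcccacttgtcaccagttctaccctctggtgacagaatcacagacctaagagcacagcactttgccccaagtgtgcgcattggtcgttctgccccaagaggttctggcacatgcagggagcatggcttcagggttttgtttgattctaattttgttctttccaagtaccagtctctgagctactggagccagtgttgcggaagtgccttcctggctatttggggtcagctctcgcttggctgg

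The ligand it blocks did not pass. Il18, which the inflammasome matures, measured 61.1, 89.7, 56.9, 52.2 and 79.1 FPKM in controls 1 to 5 and 71.5, 33.1, 52.3, 77.4 and 73.2 FPKM in Villin-WlscKO tumors 1 to 5, a log2 change of -0.17 (95% interval -0.70 to 0.36, adjusted p = 0.71). The lowest value was in Villin-WlscKO tumor 2, and otherwise the groups covered the same range. The chains of the IL-18 receptor were low. Il18r1, the binding chain, measured 0.279, 0.217, 0.168, 0.180 and 0.192 FPKM in controls and 0.550, 1.28, 0.979, 0.545 and 0.425 FPKM in Villin-WlscKO tumors, and it was too low for the test although its groups did not overlap. Il18rap, the accessory chain, measured 0.987, 0.911, 1.90, 1.34 and 0.922 FPKM in controls and 1.78, 3.77, 2.03, 1.71 and 1.21 FPKM in Villin-WlscKO tumors, with overlap and an adjusted p of 0.196. In both chains, tumors 2 and 3 were the highest of the 10.

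IL-1 itself is encoded by 2 neighboring genes on chromosome 2, Il1a and Il1b, at chr2:129299610-129371139. Il1a, an alarmin that is active without processing, was 3.88, 3.55, 7.75, 4.13 and 3.24 FPKM in control tumors 1 to 5 and 15.3, 8.57, 7.22, 9.91 and 5.79 FPKM in Villin-WlscKO tumors 1 to 5. Control tumor 3 reached into the Villin-WlscKO range, and Villin-WlscKO tumor 1 was the highest of all. Il1a rose from 4.51 ± 1.84 to 9.36 ± 3.65 FPKM (SD, n = 5 each), a log2 change of 0.90 (SE 0.26, adjusted p = 0.0492). This call was close to the threshold: it was lost without any one of control tumors 1, 2, 4 and 5 and Villin-WlscKO tumors 1 to 4 (adjusted p = 0.0687 to 0.111), and with the tumor number as a block (adjusted p = 0.0769). Il1b, which caspase-1 matures, was 41.5, 41.1, 86.2, 30.8 and 27.1 FPKM in controls and 57.8, 96.3, 28.6, 52.1 and 20.8 FPKM in Villin-WlscKO tumors. Its values ran from low to high in both groups, and the log2 change was 0.098 (95% interval -0.83 to 1.03, adjusted p = 0.917), with the direction turning to -0.18 without Villin-WlscKO tumor 2.

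The IL-1 antagonist Il1rn was 97.8, 119.5, 92.7, 80.2 and 118 FPKM in controls and 147, 158, 157, 103 and 129 FPKM in Villin-WlscKO tumors. Only Villin-WlscKO tumor 4 lay within the control range, yet the log2 change of 0.45 did not pass (adjusted p = 0.0793). With the tumor number as a block, or without Villin-WlscKO tumor 4, it did (adjusted p = 0.0395 and 0.0277). The decoy receptor Il1r2 was 5.36, 6.15, 5.62, 4.57 and 3.50 FPKM in controls and 2.76, 12.7, 8.78, 5.52 and 5.01 FPKM in Villin-WlscKO tumors, an adjusted p of 0.623. Tumors 2 and 3 were again the highest, and without them the log2 change of 0.28 turned to -0.18. The signaling receptor Il1r1 ranged from 3.80 to 15.9 FPKM in controls and from 4.09 to 11.4 in Villin-WlscKO tumors, and the accessory chain Il1rap, which the receptors of IL-1, IL-33 and IL-36 share, from 2.47 to 4.08 and from 2.41 to 3.32.

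The IL-36 cytokines, epithelial members of the IL-1 family, lie beside Il1rn at chr2:24153161-24351494. Il1f6 (IL-36 alpha) was 0.906, 0.159, 0.480, 0.619 and 0.409 FPKM in controls and 1.35, 1.12, 1.51, 1.93 and 1.12 FPKM in Villin-WlscKO tumors. Low as they were, the groups did not overlap. Il1f6 rose from 0.515 ± 0.275 to 1.40 ± 0.334 FPKM (SD, n = 5 each), a log2 change of 0.68 (SE 0.15, adjusted p = 0.0191), which became 0.0626 without Villin-WlscKO tumors 2 and 3. Il1f8 (IL-36 beta) was 6.39, 0.674, 0.259, 0.318 and 0.231 FPKM in controls and 0.122, 0.109, 0.0995, 0.115 and 0 FPKM in Villin-WlscKO tumors. The groups did not overlap, but control tumor 1 alone carried most of the control mean, tumor 5 of the Villin-WlscKO group was listed at 0, and the change of -0.81 did not pass (adjusted p = 0.286). Il1f9 (IL-36 gamma) was 4.49, 1.26, 2.58, 2.61 and 2.66 FPKM in controls and 2.97, 4.86, 6.21, 4.11 and 2.34 FPKM in Villin-WlscKO tumors, an adjusted p of 0.3003. Their receptor Il1rl2 was 1.16, 1.57, 2.62, 4.14 and 3.45 FPKM in controls and 0.581, 4.98, 5.88, 0.951 and 0.803 FPKM in Villin-WlscKO tumors, where tumors 2 and 3 were the highest of all 10 and the other 3 were below every control (log2 change -0.20, adjusted p = 0.832).

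IL-33 is an alarmin held in the nucleus until a cell is damaged. Its gene Il33 was 10.4, 7.40, 19.2, 18.0 and 12.2 FPKM in controls and 34.1, 39.3, 18.2, 42.1 and 11.3 FPKM in Villin-WlscKO tumors. Tumors 1, 2 and 4 of the Villin-WlscKO group exceeded every control while 3 and 5 did not, and the log2 change of 0.98 did not pass (95% interval 0.15 to 1.80, adjusted p = 0.128) except without Villin-WlscKO tumor 5 (adjusted p = 0.0377). Its receptor Il1rl1 was 47.2, 26.1, 145, 101 and 31.6 FPKM in controls and 85.2, 111, 35.4, 92.8 and 29.4 FPKM in Villin-WlscKO tumors. Both groups ran from about the same low to a high value, with an adjusted p of 0.91. Il1rl1 belongs to a run of 6 receptor genes of this family at chr1:40074079-40551705 (Il1r2, Il1r1, Il1rl2, Il1rl1, Il18r1 and Il18rap), of which 5 were tested and 0 passed. In the IL-1 family as a whole, 3 of 15 members tested rose and 0 fell, and the median log2 change was 0.28.

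The cytokines whose receptors use Il2rg, counted with the chains of IL-13, gave 4 of the 8 members that rose, all of them receptor chains, out of 9 tested. Among the 4, Il13ra1 pairs with Il4ra and not with Il2rg. The 9 members had a median log2 change of 0.51. Il15ra, the chain on which a cell presents IL-15 to its neighbors, was 2.13, 2.196, 2.34, 1.06 and 1.39 FPKM in control tumors 1 to 5 and 3.28, 3.83, 6.39, 4.93 and 4.67 FPKM in Villin-WlscKO tumors 1 to 5. Every Villin-WlscKO tumor was above every control, and tumor 3 was the highest. Il15ra rose from 1.82 ± 0.561 to 4.62 ± 1.19 FPKM (SD, n = 5 each), a log2 change of 0.99 (SE 0.18, adjusted p = 0.00706). Il2rb, which binds IL-2 and IL-15 on T and NK cells, was 0.596, 0.544, 0.376, 0.531 and 0.350 FPKM in controls and 0.979, 2.88, 3.23, 1.22 and 1.73 FPKM in Villin-WlscKO tumors. Again no values overlapped, and tumors 2 and 3 were the highest. Il2rb rose from 0.479 ± 0.109 to 2.01 ± 1.00 FPKM (SD, n = 5 each), a log2 change of 0.96 (SE 0.21, adjusted p = 0.0165), and of 0.63 without tumors 2 and 3 (adjusted p = 0.0369).

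The ligand of this receptor did not pass, although its groups did not overlap. Il15, a survival factor of NK cells and memory CD8 T cells, was 11.3, 13.0, 8.26, 7.90 and 9.75 FPKM in controls and 5.96, 7.77, 7.66, 7.005 and 6.36 FPKM in Villin-WlscKO tumors. All 5 Villin-WlscKO values were below all 5 control values by a small margin. The log2 change of -0.46 missed the threshold (95% interval -0.76 to -0.16, adjusted p = 0.0571). It passed without control tumor 3 or control tumor 4 (adjusted p = 0.0432 and 0.0444). The common chain Il2rg, whose values are also those of Gm614, was 6.0, 4.81, 8.48, 8.55 and 3.77 FPKM in controls and 6.15, 12.4, 10.9, 8.56 and 5.75 FPKM in Villin-WlscKO tumors, with tumors 2 and 3 highest and an adjusted p of 0.336. Il7, a lymphocyte survival factor, ranged from 2.12 to 3.63 FPKM in controls and from 3.11 to 4.37 in Villin-WlscKO tumors. Its receptor chain Il7r ranged from 0.627 to 1.49 and from 1.02 to 2.44, and Il21r from 0.357 to 0.700 and from 0.414 to 1.98, and none of these 3 passed.

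The sequence before the first Il15ra start is shown because no other stretch before a start, among the members that passed, held either motif searched. The motifs, read on both strands, were GAAANNGAA, the core of the interferon-stimulated response element, and TTCNNNGAA, the gamma-activated site that STAT dimers bind. In 32851 RefSeq promoter windows of all genes (GRCm38.p6, 250 bases before to 50 after each start), 8.56% held the first and 8.30% the second. Promoter windows were found for 39 of the 48 members (51 windows), of which 3 windows held the first motif and 6 the second. Of the 9 members that passed, 7 had a window (8 windows), and 2 windows, both of Il15ra, held the first motif and 0 the second. In the second Il15ra window the match is not wholly before the start. A match describes letters and is no evidence of binding. The capitals mark the match, TTCCATTTC, the reverse complement form of the first motif, whose first base lies 149 bases before the start, in the 250 bases at chr2:11705043-11705292, plus strand:
Il15ra: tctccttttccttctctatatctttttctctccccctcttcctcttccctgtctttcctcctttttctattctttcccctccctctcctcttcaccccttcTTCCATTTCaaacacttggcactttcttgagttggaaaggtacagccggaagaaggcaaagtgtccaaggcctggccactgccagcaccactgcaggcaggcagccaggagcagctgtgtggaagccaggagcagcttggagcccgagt

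IL-4 and IL-13 act on epithelium through a pair of chains, Il4ra and Il13ra1, and both rose. Il13ra1 was 20.7, 23.0, 28.9, 22.7 and 28.0 FPKM in control tumors 1 to 5 and 46.1, 36.4, 38.9, 50.2 and 39.2 FPKM in Villin-WlscKO tumors 1 to 5. The groups were well separated, with a rise from 24.6 ± 3.60 to 42.2 ± 5.79 FPKM (SD, n = 5 each) and a log2 change of 0.75 (SE 0.12, adjusted p = 0.00299). Il13ra1 lies on the X chromosome, at chrX:36112110-36171259, and the Villin-WlscKO tumors were the ones with Xist. Il4ra was 33.5, 16.0, 25.5, 17.1 and 13.4 FPKM in controls and 33.9, 39.97, 33.4, 39.9 and 28.6 FPKM in Villin-WlscKO tumors. Control tumor 1 lay within the Villin-WlscKO range and the other controls below it. Il4ra rose from 21.1 ± 8.27 to 35.2 ± 4.84 FPKM (SD, n = 5 each), a log2 change of 0.77 (SE 0.22, adjusted p = 0.0493), but the call was lost without any one of control tumors 2, 4 and 5 or any one Villin-WlscKO tumor (adjusted p = 0.0587 to 0.114), and with the tumor number as a block (adjusted p = 0.0652). The decoy receptor of IL-13, Il13ra2, was at most 0.467 FPKM in controls and at most 1.25 in Villin-WlscKO tumors and was not tested.

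**Figure D3:**
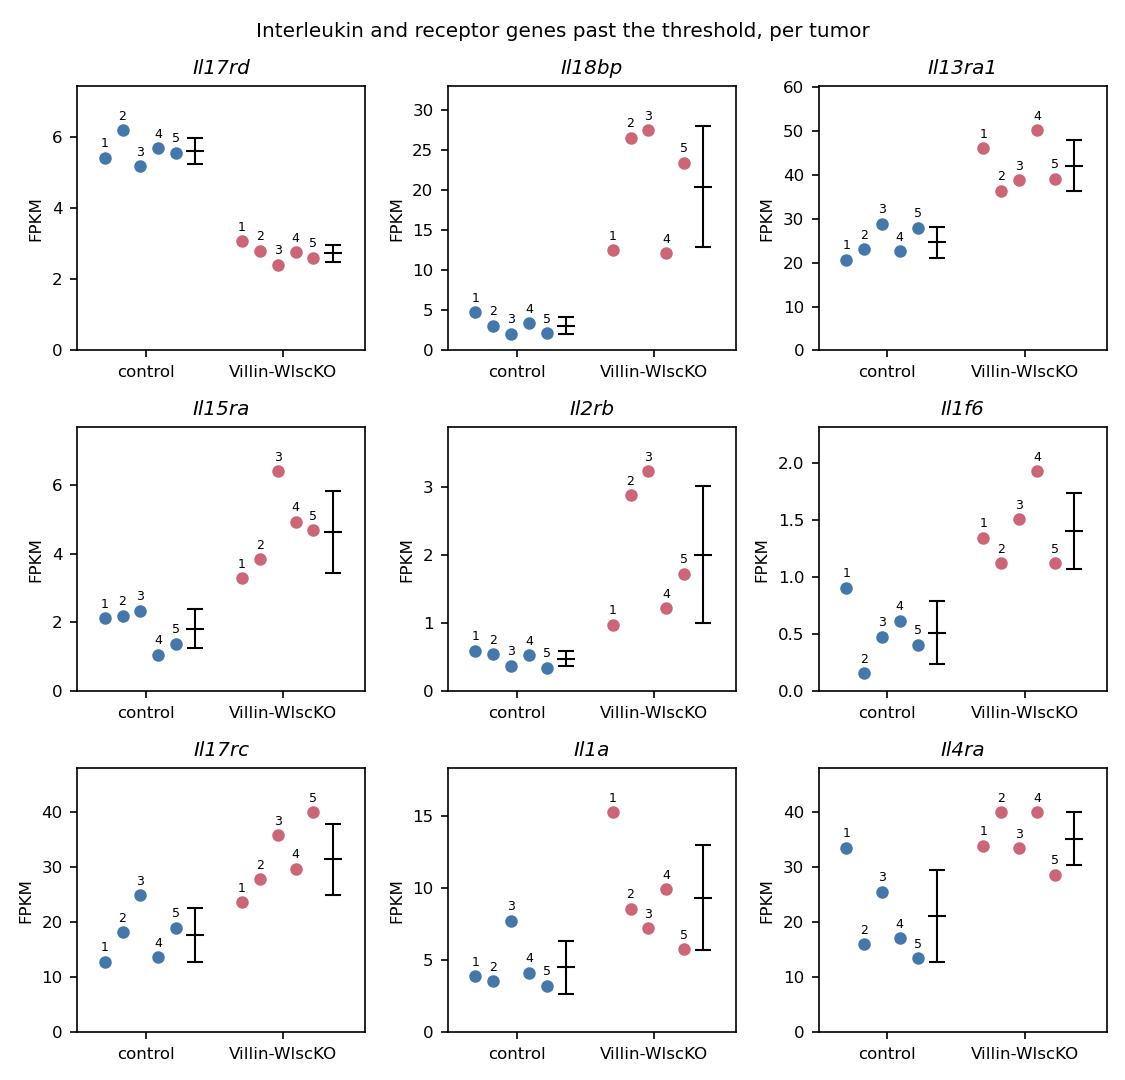
FPKM of the 9 members past the threshold in each of the 10 tumors, in the order of their adjusted p, each panel with its own axis from 0. Dots are tumors with their number (blue, control; red, Villin-WlscKO), and the bar beside them is the mean ± SD of 5. The groups of Il17rd, Il18bp, Il13ra1, Il15ra, Il2rb and Il1f6 do not overlap, while those of Il17rc, Il1a and Il4ra do.

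In the IL-17 family, 1 receptor chain fell and 1 rose among 6 members tested. Il17rd, a relative of the IL-17 receptors also known as Sef, an inhibitor of FGF signaling, was 5.42, 6.197, 5.18, 5.68 and 5.56 FPKM in control tumors 1 to 5 and 3.06, 2.80, 2.41, 2.76 and 2.61 FPKM in Villin-WlscKO tumors 1 to 5. Both groups were narrow and far apart. Il17rd fell from 5.61 ± 0.377 to 2.73 ± 0.244 FPKM (SD, n = 5 each), a log2 change of -0.83 (SE 0.085, adjusted p = 0.000234, the lowest of the members). As the only member that fell, it is shown with the 250 bases before its start, chr14:27038751-27039000, plus strand, from the same RefSeq table and with no match to either motif:
Il17rd: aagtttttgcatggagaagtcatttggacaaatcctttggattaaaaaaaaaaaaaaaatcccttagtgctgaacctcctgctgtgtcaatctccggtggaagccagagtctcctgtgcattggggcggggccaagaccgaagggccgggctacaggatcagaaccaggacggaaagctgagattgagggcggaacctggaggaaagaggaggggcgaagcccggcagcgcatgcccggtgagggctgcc

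Il17rc, which pairs with Il17ra to bind IL-17A and IL-17F, was 12.9, 18.2, 24.9, 13.6 and 19.04 FPKM in controls and 23.7, 27.9, 35.8, 29.7 and 40.01 FPKM in Villin-WlscKO tumors. Control tumor 3 was just above Villin-WlscKO tumor 1, and otherwise the groups were apart. Il17rc rose from 17.7 ± 4.84 to 31.4 ± 6.49 FPKM (SD, n = 5 each), a log2 change of 0.81 (SE 0.19, adjusted p = 0.022), and lost the call without control tumor 4, Villin-WlscKO tumor 3 or Villin-WlscKO tumor 5 (adjusted p = 0.0558, 0.0558 and 0.0504). Il17ra, the shared chain, was 4.44, 5.33, 5.97, 5.21 and 5.52 FPKM in controls and 5.99, 6.56, 7.38, 4.80 and 6.53 FPKM in Villin-WlscKO tumors, an adjusted p of 0.306. Il17re, the epithelial chain for IL-17C and the neighbor of Il17rc at chr6:113458484-113483140, was 1.39, 2.30, 2.75, 1.32 and 3.41 FPKM in controls and 2.29, 3.64, 5.21, 2.202 and 3.03 FPKM in Villin-WlscKO tumors, an adjusted p of 0.313. In both, 2 Villin-WlscKO tumors, numbers 2 and 3, were the highest of the 10. Il17rb, the receptor chain of IL-25, stayed between 0.501 and 1.44 FPKM in all tumors, and the ligand Il17d ranged from 1.44 to 2.76 in controls and from 0.596 to 1.58 in Villin-WlscKO tumors without passing (adjusted p = 0.173).

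IL-23 is made of p19, encoded by Il23a, and a p40 subunit whose gene was not analysed here. Il23a and Il22ra1 were chosen after their values were seen. Il23a was 8.72, 12.1, 15.7, 14.6 and 10.1 FPKM in controls and 11.3, 5.44, 2.11, 3.44 and 5.93 FPKM in Villin-WlscKO tumors. Apart from Villin-WlscKO tumor 1, which lay among the controls, the Villin-WlscKO values were all lower than the lowest control. The log2 change of -1.12 (95% interval -1.84 to -0.40) was just short of the threshold (adjusted p = 0.0516), and without Villin-WlscKO tumor 1 the change was -1.38 (adjusted p = 0.0118). Il12rb2, a chain of the IL-12 receptor, was at most 0.740 FPKM in any tumor.

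Among the chains of the IL-10 family, 0 of 4 passed. Il22ra1, the epithelial chain of the IL-22 receptor, was 12.3, 13.6, 13.3, 7.09 and 14.1 FPKM in controls and 17.5, 15.6, 19.6, 13.7 and 23.3 FPKM in Villin-WlscKO tumors. Villin-WlscKO tumor 4 lay among the controls and the other 4 above them, a log2 change of 0.55 (95% interval 0.13 to 0.97, adjusted p = 0.0971), which passed with the tumor number as a block (adjusted p = 0.0302). Il10ra, the binding chain for IL-10, was 3.19, 1.99, 2.12, 3.04 and 1.99 FPKM in controls and 1.24, 3.82, 4.19, 1.63 and 1.46 FPKM in Villin-WlscKO tumors. Tumors 2 and 3 were above every control and the other 3 below every control, and the log2 change of the means was -0.076 (adjusted p = 0.893). Il10rb, the shared chain, whose values are also those of Ifnar2, was 59.2, 54.1, 62.1, 61.7 and 56.5 FPKM in controls and 62.4, 62.0, 64.7, 64.5 and 60.2 FPKM in Villin-WlscKO tumors. Il20rb, whose values are also those of Nck1, was 29.3, 31.9, 24.9, 35.7 and 37.4 FPKM in controls and 32.1, 25.1, 24.99, 31.2 and 29.8 FPKM in Villin-WlscKO tumors. In both, the groups overlapped, with adjusted p of 0.319 and 0.509.

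None of the gp130 cytokines or their receptor chains passed (0 of 5, median log2 change -0.14). Il11, a stromal cytokine whose values here are also those of Tmem238, was 16.4, 19.5, 52.8, 24.6 and 21.4 FPKM in controls and 23.0, 32.3, 16.2, 29.5 and 15.2 FPKM in Villin-WlscKO tumors. Control tumor 3 was the highest, and without it the log2 change of -0.14 turned to 0.13. Il6 was low and uneven, from 0 to 4.21 FPKM in controls, where tumor 3 was again the highest, and from 0.0755 to 3.09 in Villin-WlscKO tumors. Il6st, the signal chain gp130, was 32.4, 44.8, 27.4, 31.3 and 22.8 FPKM in controls and 31.7, 24.6, 24.3, 57.9 and 19.96 FPKM in Villin-WlscKO tumors, an adjusted p of 0.907. The binding chains Il6ra and Il11ra1, the latter with a near-identical copy, Il11ra2, that can split its reads, had adjusted p of 0.451 and 0.499. Il34, which acts on the CSF1 receptor of macrophages, was 7.61, 7.61, 10.6, 8.10 and 8.38 FPKM in controls and 7.92, 9.03, 15.9, 13.4 and 12.3 FPKM in Villin-WlscKO tumors. Tumors 3, 4 and 5 exceeded every control and 1 and 2 did not (log2 change 0.40, adjusted p = 0.181). Il3ra, Il5ra, Il16 and Il4i1 did not pass either (adjusted p = 0.257, 0.441, 0.953 and 0.508).

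**Figure D4:**
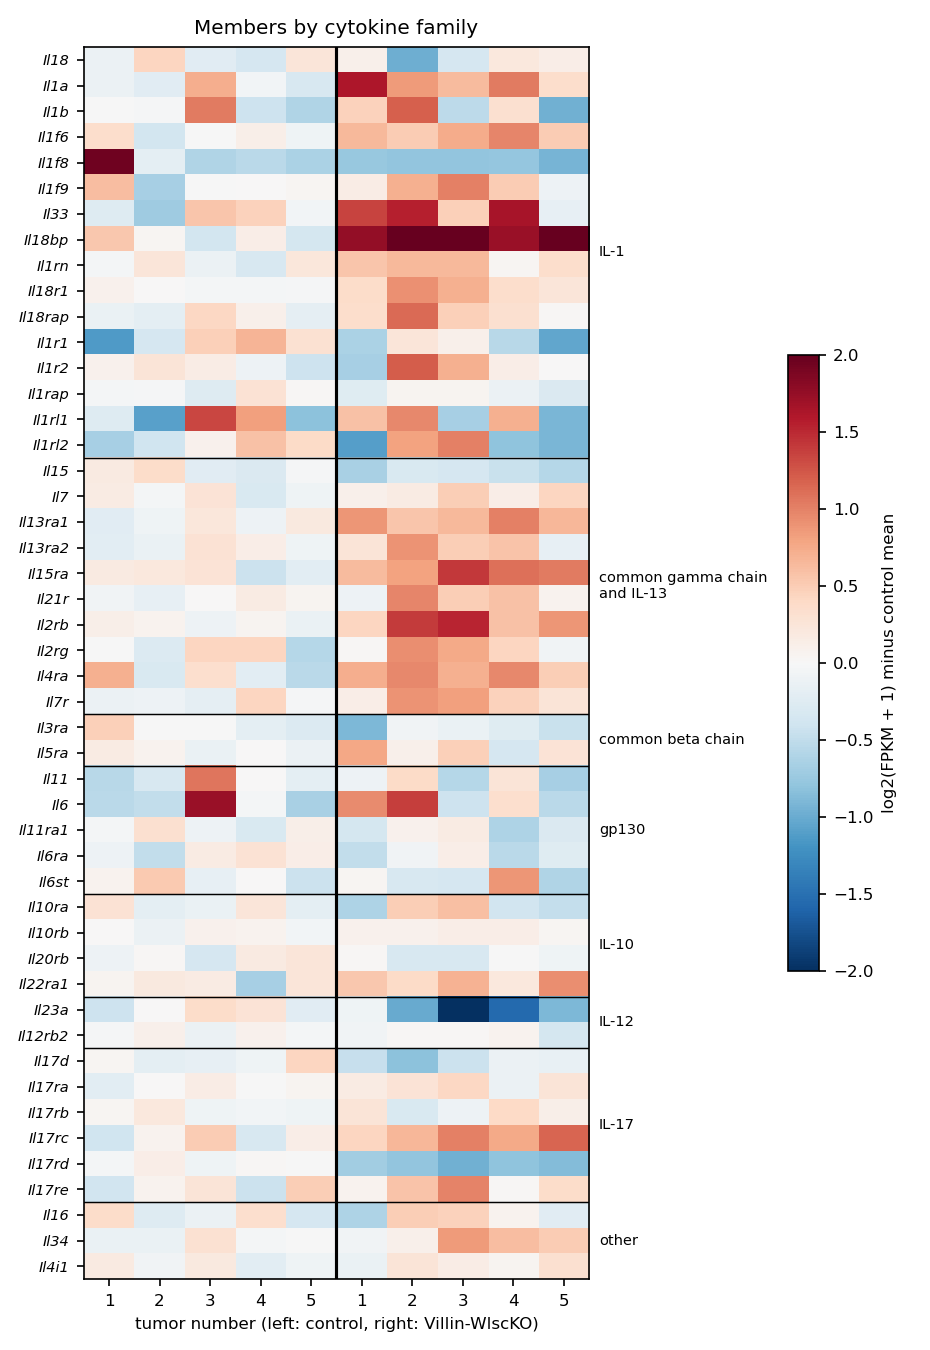
Log2(FPKM + 1) of each member minus its mean over the 5 control tumors, with members in rows by cytokine family and tumors in columns, controls left of the black line and Villin-WlscKO tumors right of it. Red is above the control mean and blue below, and colors stop at 2 in either direction. Il18bp is red and Il17rd blue across all 5 Villin-WlscKO columns, and several receptor chains are reddest in columns 2 and 3.

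Tumors 2 and 3 of the Villin-WlscKO group carried the highest values of many members. In 13 of the 46 tested (28.3%) these were the 2 highest of all 10 tumors, against 6.67% of all genes. The 13 were Il1f9, Il16, Il1rn, Il18bp and 9 receptor chains (Il1r2, Il1rl2, Il2rb, Il2rg, Il7r, Il10ra, Il17ra, Il17re and Il18rap), and Il18r1, which was not tested, had the same pattern. The 8 T cell markers (Cd3e, Cd3d, Cd3g, Cd2, Cd5, Cd4, Cd8a and Cd247) summed to 23.7 and 23.9 FPKM in these tumors, to between 10.7 and 13.9 in the other Villin-WlscKO tumors and to between 4.63 and 10.5 in controls. Of these markers, 4 of 8 rose (Cd3d, Cd3e, Cd3g and Cd8a) and 0 fell, and none was at 0 in any tumor. Cd4 and Cd8a did not follow the sums, whereas the other T cell markers were highest in tumors 2 and 3. Cd4 was 3.18 and 3.43 FPKM in tumors 2 and 3 and 5.09 in control tumor 4. Cd8a was 1.41 and 0.874 FPKM in tumors 2 and 3 and 1.14 and 1.41 in Villin-WlscKO tumors 4 and 5. The squamous markers summed to 998 and 1309 FPKM in tumors 2 and 3 and to between 12.8 and 215 elsewhere. Tumor 2 also had the highest sums of fibroblast markers (1162 FPKM) and endothelial markers (50.6 FPKM), and tumor 3 the highest sums of macrophage markers (409 FPKM) and neutrophil markers (285 FPKM). Many single markers did not follow these sums. Col3a1 made up 781 FPKM of the fibroblast sum and carries the values of AC125167.1. Col1a1, Pdgfra, Tek, Emcn and Vwf were highest in a control tumor, and Lum in Villin-WlscKO tumor 4. Of the macrophage markers, only Csf1r and C1qc were highest in tumor 3. Cd68, Adgre1, C1qa and C1qb were highest in control tumor 4, Cd14 in Villin-WlscKO tumor 4 and Fcgr1 in Villin-WlscKO tumor 2. Ly6g alone made up 257 FPKM of that neutrophil sum. The other neutrophil markers were not highest in tumor 3: Csf3r, Cxcr2 and Retnlg were highest in Villin-WlscKO tumor 2 and Mmp8 in Villin-WlscKO tumor 4. The part of these cell types in the values of the receptor chains was not tested.

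Markers of the other cell types were read in the same way. Of 8 macrophage markers, Cd14 rose and 0 fell, and their sums overlapped (221 to 384 FPKM in controls, 198 to 409 in Villin-WlscKO tumors). Of 6 B and plasma cell markers, Mzb1 rose and 0 fell, with sums of 203 to 361 and 271 to 611 FPKM. Sdc1 made up much of these sums, at 177 to 234 FPKM in controls and 145 to 270 in Villin-WlscKO tumors (log2 change 0.072). All 6 were higher in direction, and Jchain was 24.5 to 119 FPKM in controls and 62.6 to 337 in Villin-WlscKO tumors (adjusted p = 0.0699). None of 4 NK and innate lymphoid, 4 neutrophil, 7 mast cell, 1 eosinophil, 6 tuft cell, 7 fibroblast, 6 endothelial and 6 squamous markers passed. Some of these share their values with another gene name, so that their reads cannot be assigned. Among them are Mcpt1 with Mcpt2, both counted as mast cell markers, Retnlg with Retnla, Krt6a with Krt4 and Klrb1c with Klrb1b. Neutrophil sums were 59.7 to 179 FPKM in controls and 143 to 285 in Villin-WlscKO tumors, and fibroblast sums 283 to 1017 and 382 to 1162. Most of the neutrophil sums was Ly6g, at 41.1 to 167 FPKM in controls and 112 to 257 in Villin-WlscKO tumors. Of the 7 markers of intestinal epithelium, Krt20 rose and 0 fell, with sums of 3182 to 4114 and 3853 to 4963 FPKM. Their part in the members' changes was not tested.

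Genes that act downstream of the receptors or upstream of the ligands were read from the same fit. Among the JAK and STAT genes, Stat2 (log2 change 1.04), Stat4 (2.32) and Jak3 (0.76) rose and 0 fell. Stat2 is best known as a transducer of interferons, and Stat4 and Jak3 carry the same values as Gm28177 and Insl3, so their reads cannot be assigned. Stat3, the transducer of IL-6, IL-22 and IL-23, and Stat6, that of IL-4 and IL-13, had log2 changes of 0.32 and 0.025 (adjusted p = 0.132 and 0.885). Among 13 suppressors of cytokine signaling, Socs1 rose (log2 change 1.596) and 0 fell, while Socs3 had an adjusted p of 0.805.

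Of the 8 genes that mature and release IL-1 and IL-18, 5 rose and 0 fell, with a median log2 change of 0.63. They were Casp1, the protease that cleaves both cytokines (log2 change 1.05, from 34.5 ± 5.06 to 72.6 ± 10.7 FPKM), Casp4 (0.82), Casp8 (0.59), the sensor Nlrc4 (0.65) and the pore former Gsdmd (0.74). Of 12 adaptors of the IL-1 family, Irak3, an inhibitory kinase relative, rose (0.60) and Tollip fell (-0.29). Of 6 adaptors of IL-17 signaling, Zc3h12a, an RNase that degrades cytokine messages, rose (1.25) and Traf3 fell (-0.25). Of 12 partner subunits and sister cytokines tested, only Crlf2, the receptor chain of TSLP, rose (0.49) and 0 fell.

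Genes that these cytokines are known to induce were also read. Of 10 epithelial genes induced by IL-22 or IL-17 that were tested, all 10 were higher in Villin-WlscKO tumors, 4 rose and 0 fell, and the median log2 change was 1.37. The lectins Reg3b and Reg3g rose by 5.65 and 4.09 on the log2 scale, and the oxidase genes Duox2 and Duoxa2 by 1.49 and 1.56. Lcn2, S100a8 and S100a9 had adjusted p of 0.287, 0.0773 and 0.161. Of 8 genes induced by IL-4 or IL-13, Retnlb, a goblet cell product, rose (log2 change 3.50, from 6.73 ± 9.65 to 52.9 ± 21.2 FPKM) and 0 fell, whereas Clca1 and Arg1 had adjusted p of 0.787 and 0.197. Retnla, among these 8, carries the values of the neutrophil marker Retnlg. Several of these genes also answer to other signals, and the counts say nothing of which cytokine reached them.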

How the data were processed

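RNA of 5 control and 5 Villin-WlscKO tumors was sequenced from stranded mRNA libraries. The authors checked reads with FastQC, mapped them with TopHat2 2.1.1 to GRCm38.p5 and deposited FPKM per gene and tumor from Cufflinks 2.2.1 and Cuffdiff. The annotation release and the use of strand are not given in the sources used here. No steps of whole reads were found in the values (at most 6 of 112 low genes shared a ratio within 0.2%), so depth is unknown and precision rests on 5 tumors per group.

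The 2 groups were compared with limma 3.58.1 (R 4.3.3) on log2(FPKM + 1), which understates changes of low genes, leaving out genes whose mean was below 0.5 FPKM, two-sided, with an eBayes trend. A rise or fall means an adjusted p under 0.05. The fit was tested on simulated data with changes larger than that of any member but Il18bp. That test did not cover smaller changes, or changes of genes as low as Il1f6 and Il2rb. Summaries and figures used Python 3.11.15. Values per tumor are given for members that passed, that did not overlap, that were among the 5 highest ligands or receptor chains, or that were highest in Villin-WlscKO tumors 2 and 3, up to 30. Members, lists and this rule were chosen with earlier results of these data known. A result of the JAK and STAT list is not reported here. Positions are from GENCODE M21. Alternatives were other scalings, pseudocounts, filters, eBayes settings and weights, left-out tumors, shared values counted once and a block for the tumor number. Whether tumors of the same number share a mouse or day is not stated. Their deviations correlated weakly (0.064, -0.087, 0.063, 0.10 and 0.16), which cannot decide it.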

Additional observations from a re-analysis of the deposited data

Results flagged for a closer look

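In 60 groups of 5 tumors (30 members, each in 2 groups), 3 held a tumor far from the rest, where chance alone flags about 1 group in 20. Il1a was 7.75 FPKM in control tumor 3, and the next control was at 4.13. Il1f8 was 6.39 FPKM in control tumor 1, with the next control at 0.674, and was listed at 0 in Villin-WlscKO tumor 5, with the next lowest at 0.0995.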

How the results depend on the processing

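Il13ra1, Il18bp, Il15ra, Il17rd and Il2rb passed in every alternative that tested them (22, 22, 21, 21 and 21). Il1f6 passed in 20 of 21, Il17rc in 18 of 22, Il1a in 11 of 22 and Il4ra in 9 of 22. The number that rose, 8, was 5 at a mean FPKM of at least 5, which tests fewer genes, 4 without Villin-WlscKO tumors 2 and 3, 9 with no filter on low values, 10 at an adjusted p under 0.1, and 5 to 8 with 1 tumor left out. The number that fell, 1, was 2 after rescaling by median ratios, quantile normalization or counting shared values once, 3 with tumor quality weights or at an adjusted p under 0.1, and 1 to 2 with 1 tumor left out. A replicate block on the tumor number gave 8 and 1, lost Il1a and Il4ra and gained Il1rn and Il22ra1. Rescaling to a fixed FPKM sum moved the median of all genes to 0.097 and quantile normalization to -0.046. Directions turned only in members that did not pass. With 1 tumor left out, log2 changes ran from -0.18 to 0.36 (Il1b), -0.14 to 0.47 (Il1rl1), -0.50 to 0.025 (Il1rl2), -0.31 to 0.066 (Il6st), -0.24 to 0.058 (Il10ra), -0.28 to 0.13 (Il11) and -0.27 to 0.030 (Il18). Without Villin-WlscKO tumors 2 and 3 they were -0.060 (Il1b), -0.18 (Il1r2), 0.10 (Il6st) and 0.15 (Il18), and with a fixed FPKM sum 0.033 (Il6st) and 0.0069 (Il10ra). The cause was not tested. Of 671 alternative values of 31 members, 608 kept direction and side of the threshold.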
